A study of Mus musculus with 9 samples.

Results

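The 53 genes described here encode the lysosome's hydrolases other than the cathepsins, its membrane proteins, its proton pump, the receptors that sort enzymes to it and the MiT/TFE transcription factors. They were chosen as a list of mouse symbols by their known roles, with earlier results of these data known, and matched to the Ensembl gene IDs of the count table through GENCODE M21. All 53 were among the 55536 gene IDs of the table, and all 53 were among the 13815 genes with enough counts to be tested. RNA sequencing had been done on 9 libraries of bone marrow-derived macrophages (BMDM), 3 in each of 3 groups. The recipient cells of every group were labelled wild-type, came from male mice aged 6 to 12 weeks, and had been differentiated with the growth factor M-CSF at 25 ng/mL over 6 days. They then received one of 3 treatments for 18 h. The first was exosomes, small secreted vesicles, from BMDM of ApoE-deficient mice (EKO), the second was exosomes from BMDM of wild-type mice (WT), and the third was PBS without exosomes. Exosomes were given at 2e+09 particles/mL. The labels do not say whether the replicates of a group came from separate mice or separate exosome preparations, so the tests gauge differences only against library-to-library variation, which may in part be technical.

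The lysosome is the acidic compartment in which a macrophage breaks down what it has engulfed or recycled. Its V-ATPase pumps protons inward. A cytosolic V1 sector hydrolyses ATP and a membrane-embedded V0 sector carries the protons, and the acid hydrolases work in the low pH that results. Most soluble hydrolases are tagged with mannose 6-phosphate and carried to the lysosome by receptors. The MiT/TFE factors TFEB, TFE3 and MITF are known to bind an E-box with the core CACGTG in promoters of many lysosomal genes, the CLEAR element, and to raise their transcription.

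Because that motif is what ties many of these genes together in the literature, promoters of 3 members called higher in both exosome groups are shown first. They were chosen for low p-values among members with the longest match, on the RefSeq promoter windows of GRCm38.p6, which run from 250 bases before to 50 after an annotated start. Capitals mark the match to TCACGTG, extended to TCACGTGA where the next base is A. Sequences are given 5′ to 3′ along the gene's strand, limited to bases outside annotated exons for Atp6v1a and to 30 bases for the others. The Gla and Naglu matches lie in exons annotated in GENCODE M21, counting exons of any gene. Positions are relative to the RefSeq start. In GENCODE M21 the Atp6v1a stretch and the Naglu match lie within the span of the gene, and the Gla matches lie before it. The Atp6v1a stretch lies on the minus strand at chr16:44139306-44139461, and its match is 132 to 125 bases before the RefSeq start. The Gla stretches lie on the minus strand at chrX:134601216-134601245 and chrX:134601183-134601212, with matches 228 to 221 and 195 to 188 bases before the start. The Naglu stretch lies on the plus strand at chr11:101070008-101070037, with its match 74 to 68 bases before the start.
Atp6v1a: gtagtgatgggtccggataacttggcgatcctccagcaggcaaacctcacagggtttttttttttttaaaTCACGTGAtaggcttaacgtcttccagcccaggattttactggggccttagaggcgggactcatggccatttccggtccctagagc
Gla, first match: gtaagcgattgaTCACGTGAgcatctacgt
Gla, second match: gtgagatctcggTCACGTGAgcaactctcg
Naglu: ccaaccttcaggTCACGTGgcccgaggtcg

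A window was present for 46 of the 53 members, and 15 of those 46 genes (32.6%) held TCACGTG on either strand. The share among the 9971 tested genes with a window was 6.98%, and among the 27025 genes of the window table it was 4.29%. The shorter CACGTG, which lies inside TCACGTG, was present in the same number of members, 15, in 11.8% of tested genes and in 8.09% of all genes. The members with a match were Atp6v1a, Atp6v0b, Atp6v0d1, Atp6v0e, Lamp1, Mcoln1, Cln3, Gla, Glb1, Arsa, Naglu, Sgsh, Gaa, Lgmn and Igf2r. Of the members called higher with EKO exosomes 5 of 9 with a window held it, of those called higher with WT exosomes 6 of 14, and of members called in no comparison 9 of 29. None of the 3 genes for the MiT/TFE factors held it in these windows. A match describes the letters and is not evidence of binding, and Atp6v1c1, Atp6v1b2, Atp6v1g1, Atp6v1h, Asah1, M6pr and Sort1 are named without a window.

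Library totals lay between 28581306 and 35929596 counts, with 17150 to 18680 genes detected, and scaling factors of 0.995 to 1.01. In a principal component analysis WT replicate 3 stood apart on the first component (57.5, others -16.8 to 3.43), and on the second WT replicate 2 was at -45.4 and EKO replicate 2 at 38.0. Defining macrophage markers were abundant in every library, 10 of 10 tested, and summed to 23470 to 24720 normalised counts (CPM, scaled to library size) with PBS, 21780 to 22410 with WT exosomes and 21490 to 22490 with EKO exosomes. Adgre1, Fcgr1, Csf1r, Itgam, Cd14 and Lyz2 were among the markers called lower with each kind of exosome, and Spi1 was called lower with EKO exosomes. Cd68, itself a lysosomal membrane protein, was called higher with WT exosomes. Neutrophil markers (6 of 11 tested, 1 at 0 in every library) summed to 29.3 to 40.7, 19.4 to 38.9 and 12.7 to 23.6 CPM in the PBS, WT and EKO groups. Fibroblast markers (5 of 7 tested) summed to 9.08 to 64.6, 16.9 to 29.9 and 5.85 to 25.2 CPM, and dendritic, lymphoid, mast and erythroid markers to at most 2.16 CPM per list. Endothelial markers summed to 12.85 to 19.7 CPM over all libraries and osteoclast markers to 14.1 to 19.2 CPM. No gene of these other lists was called in any comparison. Whether the lower macrophage markers, or the spread of the neutrophil sums, had a part in the values below was not tested. In bulk RNA fewer cells of a type and less RNA per cell cannot be told apart.

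Levels of different members are compared per exon length, as TPM computed from the counts. Psap, the precursor of the saposins that present sphingolipids to their hydrolases, was the most abundant member at 17118 ± 599 TPM (SD, n = 3) with PBS. The next were Lamp1, a major glycoprotein of the lysosomal membrane (2805 ± 14.6 TPM), Grn, which encodes progranulin (2764 ± 72.0 TPM), Hexa, the alpha chain of beta-hexosaminidase (2495 ± 49.1 TPM), and Laptm5 (2428 ± 26.1 TPM). Lamp1 and Grn, neighbours in this order, did not differ beyond their spread. The acid lipase Lipa (1730 ± 39.4 TPM) and the asparaginyl endopeptidase Lgmn (1685 ± 44.9 TPM) were likewise within their spread of each other. Among the pump genes Atp6ap1, Tcirg1, Atp6v0b and Atp6v1a led, at 656, 606, 561 and 551 TPM. The MiT/TFE factors were low, with Tfe3 at 96.9, Mitf at 78.7 and Tfeb at 48.4 TPM. Atp6v1h was the lowest member per length, at 26.6 TPM over 9746 annotated exon bases. That order depends on the length used. By CPM with PBS Smpd1 was the lowest member, at 38.4, and Atp6v1h was at 69.2. Members called in at least 1 comparison, 19 in all, ranged from 78.7 to 17118 TPM, and the 34 called in none from 26.6 to 2428 TPM.

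**Figure D1:**
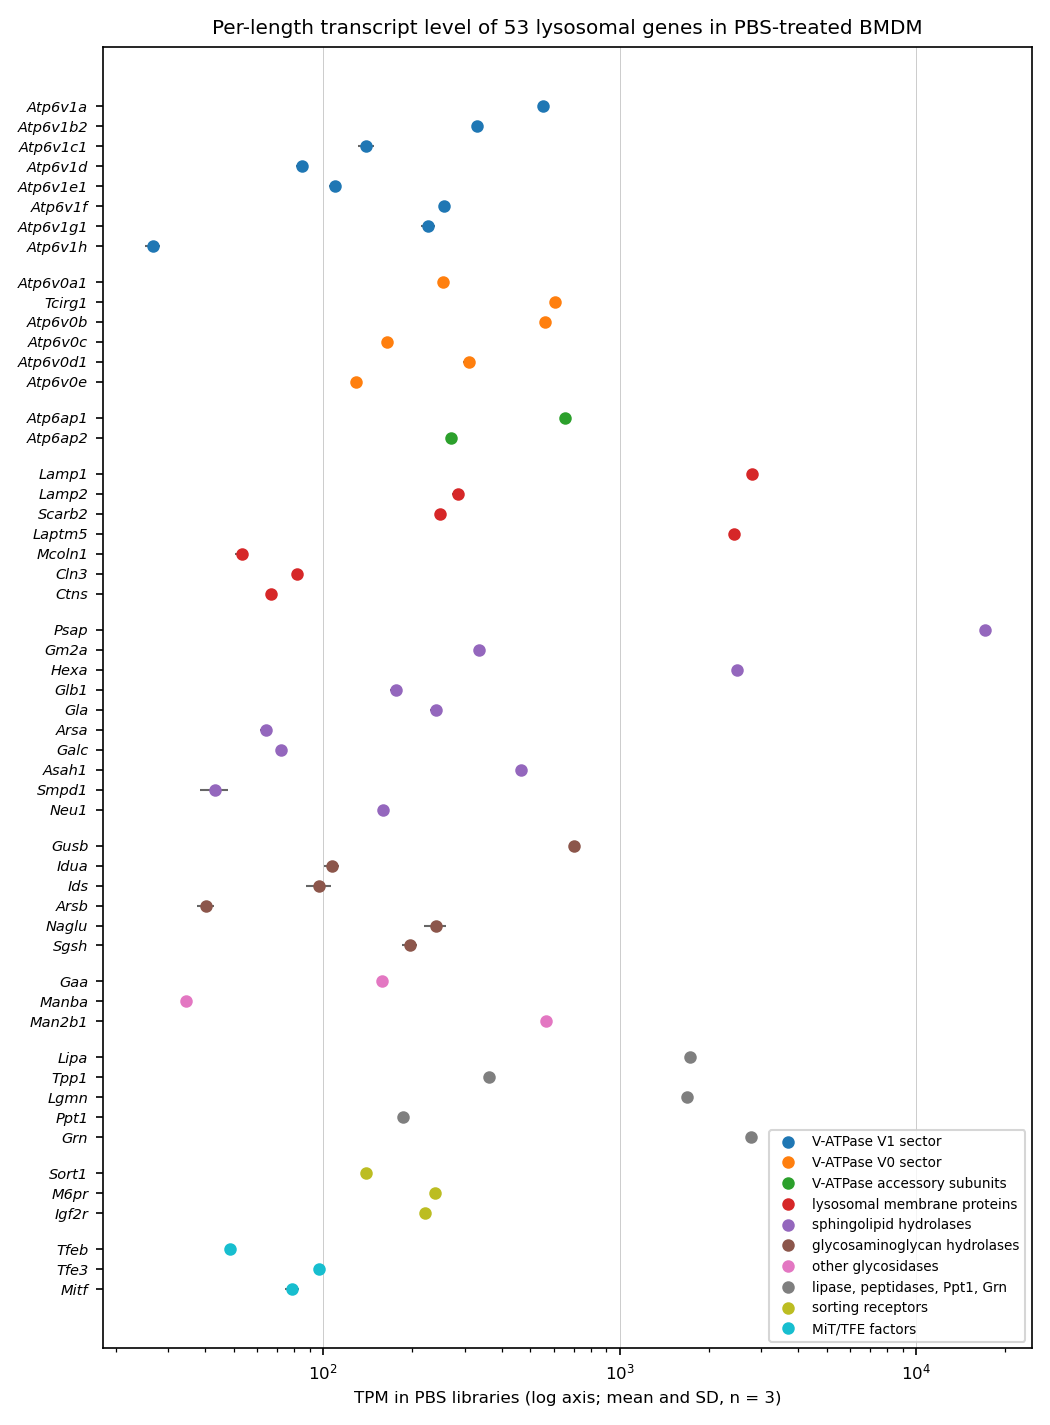
Per-length level of each of the 53 genes in PBS-treated macrophages, as TPM on a log axis (points: mean, bars: SD, n = 3), coloured by role. Psap at 17118 TPM lies far to the right of Lamp1 at 2805 TPM, and the lowest member is Atp6v1h at 26.6 TPM.

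Both exosome treatments were followed by higher transcript levels of part of the pump and of several hydrolases, the largest of 25.4%. With EKO exosomes 10 of the 53 members rose, 1 fell and 42 did not pass the threshold (edgeR adjusted p under 0.05), where 4.23% of all tested genes passed in either direction. Thus 18.9% of members were called higher, against 1.82% of all tested genes, and 1.89% were called lower, a share near the 2.41% of all tested genes. With WT exosomes 15 members rose (28.3%, against 1.93% of all tested genes), 2 fell (3.77%, against 2.18%) and 36 did not pass, where 4.11% of all tested genes passed in either direction. The count of risers with EKO exosomes was 7 without EKO replicate 3 or without PBS replicate 2. That with WT exosomes was 13 without PBS replicate 2 or without WT replicate 3, and 14 without WT replicate 2. WT replicates 2 and 3 were the WT libraries that stood apart in the principal component analysis. All 3 EKO libraries lay above all 3 PBS libraries for 21 members (39.6%), against 9.06% of tested genes, and below them for 3 (5.66%), against 9.24%. The corresponding counts for WT exosomes were 21 (39.6%, against 8.59%) and 4 (7.55%, against 8.87%). The median log2 fold change of the members was 0.06 with EKO and 0.07 with WT exosomes, where the median of all tested genes was 0.00 in both. Both comparisons use the same PBS libraries, so their counts are not independent of each other. The shares over all tested genes, here and below, were not matched for level. They include genes with far fewer counts than any member, for which changes of this size are harder to call.

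**Figure D2:**
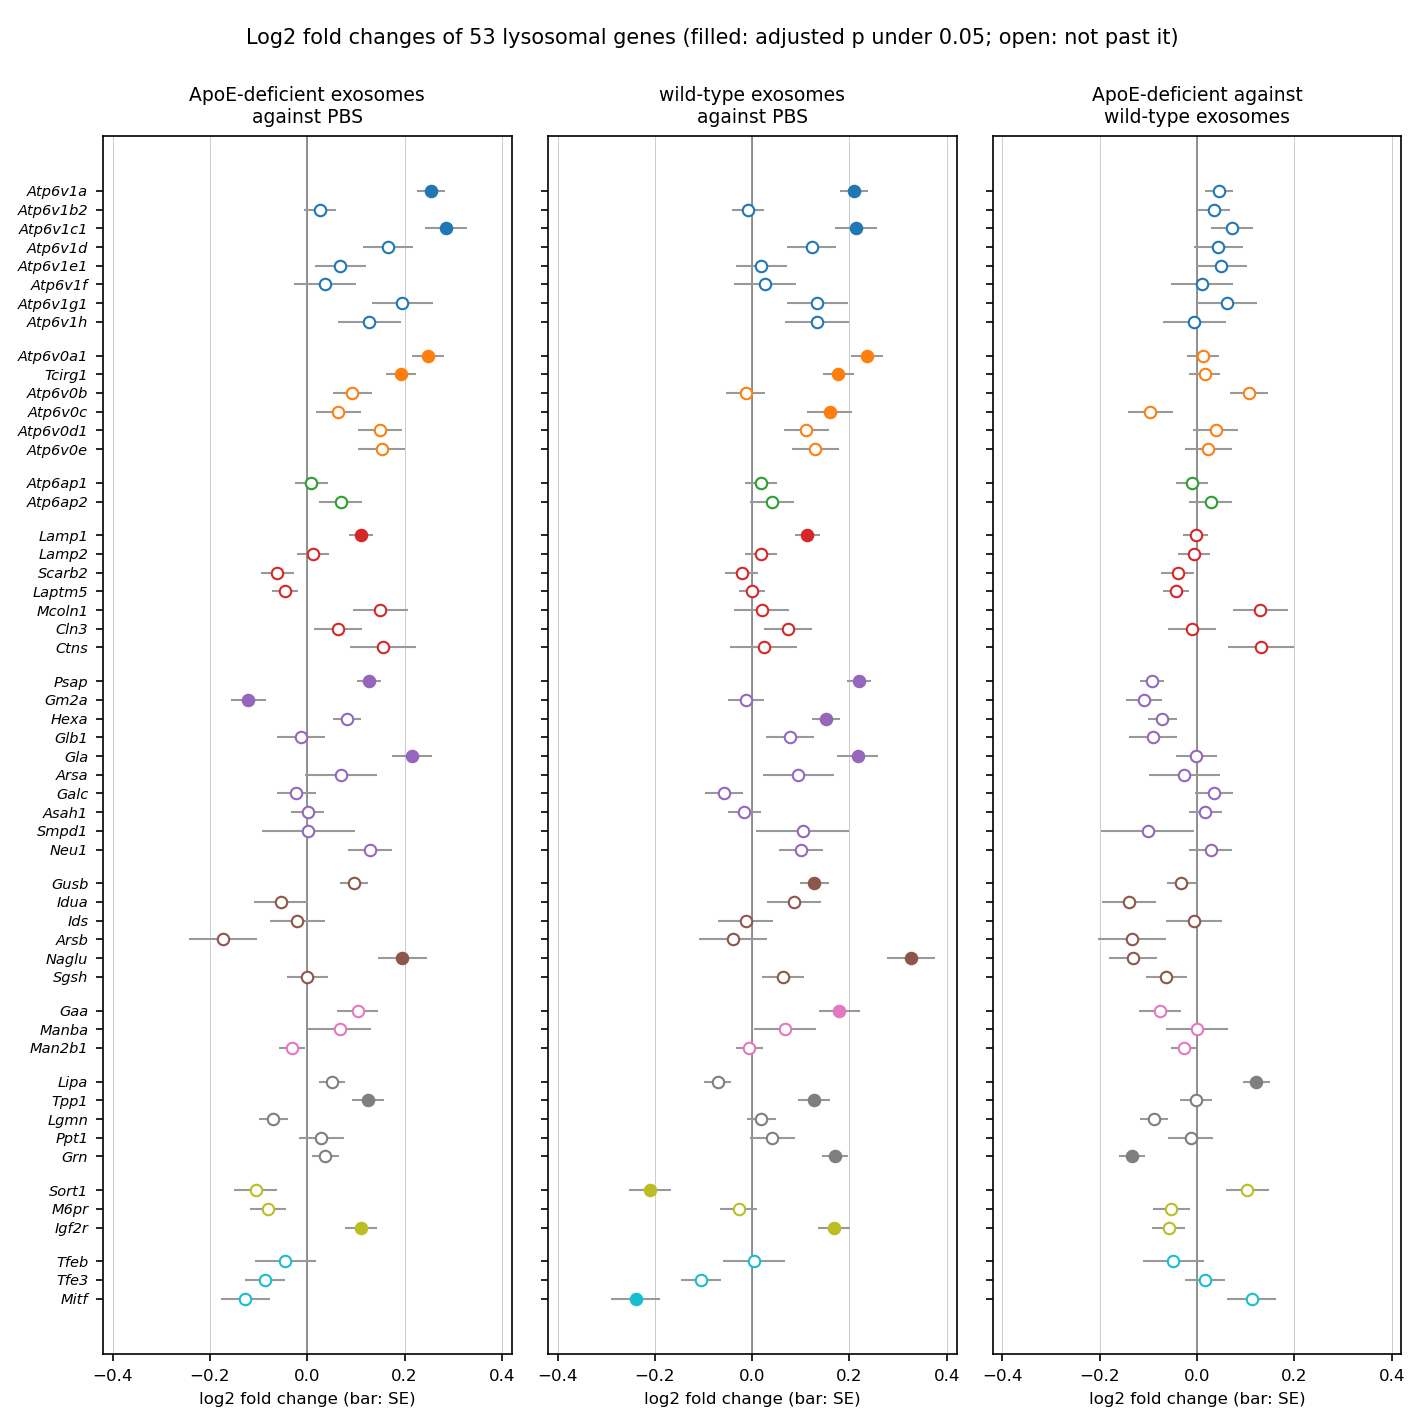
Log2 fold change of each of the 53 genes in the 3 comparisons, grouped by role (bars: SE; filled points: edgeR adjusted p under 0.05; open points: not past it). Filled points lie mostly to the right of 0 in the comparisons with PBS, 10 of 11 for EKO exosomes and 15 of 17 for WT exosomes, and the direct comparison of the exosomes has 2 filled points, Lipa to the right and Grn to the left.

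No more than 1.82% of all tested genes, the share called higher with EKO exosomes, can have been called higher with both. Among the 16 genes of the V-ATPase, 4 rose with both kinds of exosome. They encode the catalytic subunit A of V1 (Atp6v1a), its stalk subunit C1 (Atp6v1c1), and 2 forms of the proton-conducting subunit a of V0, a1 (Atp6v0a1) and a3 (Tcirg1), the form known from the osteoclast pump. Atp6v1a (ENSMUSG00000052459, GRCm38 chr16:44085402-44139705) was at 890, 872 and 900 CPM with PBS, 1023, 1040 and 1015 CPM with WT exosomes and 1072, 1033 and 1068 CPM with EKO exosomes. Every exosome library was above every PBS library. The log2 fold change was 0.25 ± 0.029 (SE) with EKO exosomes (edgeR adjusted p = 1.02e-07), a rise of 19.2%, and 0.21 ± 0.029 with WT exosomes (adjusted p = 4.17e-06), a rise of 15.6%.

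Atp6v1c1 was at 198, 204 and 225 CPM with PBS, 243, 247 and 238 CPM with WT exosomes and 257, 246 and 261 CPM with EKO exosomes. Its rise was the largest of the members with EKO exosomes (log2 0.29 ± 0.043, adjusted p = 1.53e-05) and was 0.21 ± 0.043 with WT exosomes (adjusted p = 0.00127). The groups did not overlap with PBS in either case. Atp6v0a1 was at 437, 444 and 449 CPM with PBS, 519, 523 and 525 CPM with WT exosomes and 505, 548 and 527 CPM with EKO exosomes. It rose by 0.25 ± 0.033 (adjusted p = 1.82e-06) with EKO and by 0.24 ± 0.033 (adjusted p = 6.25e-06) with WT exosomes, again with no overlap. Tcirg1 was at 715, 741 and 776 CPM with PBS, 851, 849 and 824 CPM with WT exosomes and 860, 859 and 833 CPM with EKO exosomes. Its changes were 0.19 ± 0.031 (adjusted p = 5.24e-05) and 0.18 ± 0.031 (adjusted p = 0.00023) on the log2 scale with EKO and WT exosomes.

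The proteolipid gene Atp6v0c, which forms the rotating ring of V0, was at 145, 149 and 151 CPM with PBS, 173, 160 and 165 CPM with WT exosomes and 152, 162 and 152 CPM with EKO exosomes. It was called higher with WT exosomes (log2 0.16 ± 0.046, adjusted p = 0.0366) and not with EKO exosomes (0.06, adjusted p = 0.647), and the difference between the exosomes did not pass (adjusted p = 0.588). The WT call was lost without PBS replicate 1 (adjusted p = 0.15), PBS replicate 2 (0.0797), PBS replicate 3 (0.0521), WT replicate 1 (0.204) or WT replicate 3 (0.0779). Its pseudogenes Atp6v0c-ps1 and Atp6v0c-ps2, which share sequence with it, had 1 to 8 and 8 to 20 counts per library.

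The other 11 pump genes were not called against PBS. Those nearest the threshold with EKO exosomes were Atp6v1d, for the central stalk (log2 0.17, adjusted p = 0.0563), Atp6v0d1 (0.15, adjusted p = 0.0586), Atp6v0e (0.15, adjusted p = 0.0679) and Atp6v1g1, for a peripheral stalk (0.20, adjusted p = 0.074). With DESeq2 these passed (adjusted p = 0.0226, 0.0332, 0.0414 and 0.0381), as did Atp6v1d (0.0257) and Atp6v0d1 (0.0423) in edgeR without PBS replicate 1 and Atp6v0e (0.0367) without PBS replicate 3. With WT exosomes they were at 0.12, 0.11, 0.13 and 0.13, with adjusted p of 0.147 to 0.314. The most abundant pump gene per length, Atp6ap1, an accessory subunit, was at 529 ± 18.7 CPM (SD, n = 3) with PBS, 536 ± 13.7 with WT and 532 ± 12.6 with EKO exosomes. Atp6v1b2, the non-catalytic B subunit that pairs with subunit A in the ATP-hydrolysing ring, was at 466 ± 2.86, 464 ± 4.48 and 475 ± 14.3 CPM. Levels of Atp6v1f (72.3 ± 3.39, 73.6 ± 4.51 and 74.2 ± 2.38 CPM) and Atp6ap2 (188 ± 1.75, 193 ± 11.4 and 197 ± 7.94 CPM) also overlapped between groups. Thus the gene for subunit A rose while that for its partner B2 was at log2 0.03 with EKO exosomes (adjusted p = 0.85) and -0.01 with WT exosomes (adjusted p = 0.956). Atp6v0b, another proteolipid, was at 307 ± 12.6, 304 ± 9.07 and 327 ± 16.1 CPM and was not called in any comparison.

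**Figure D3:**
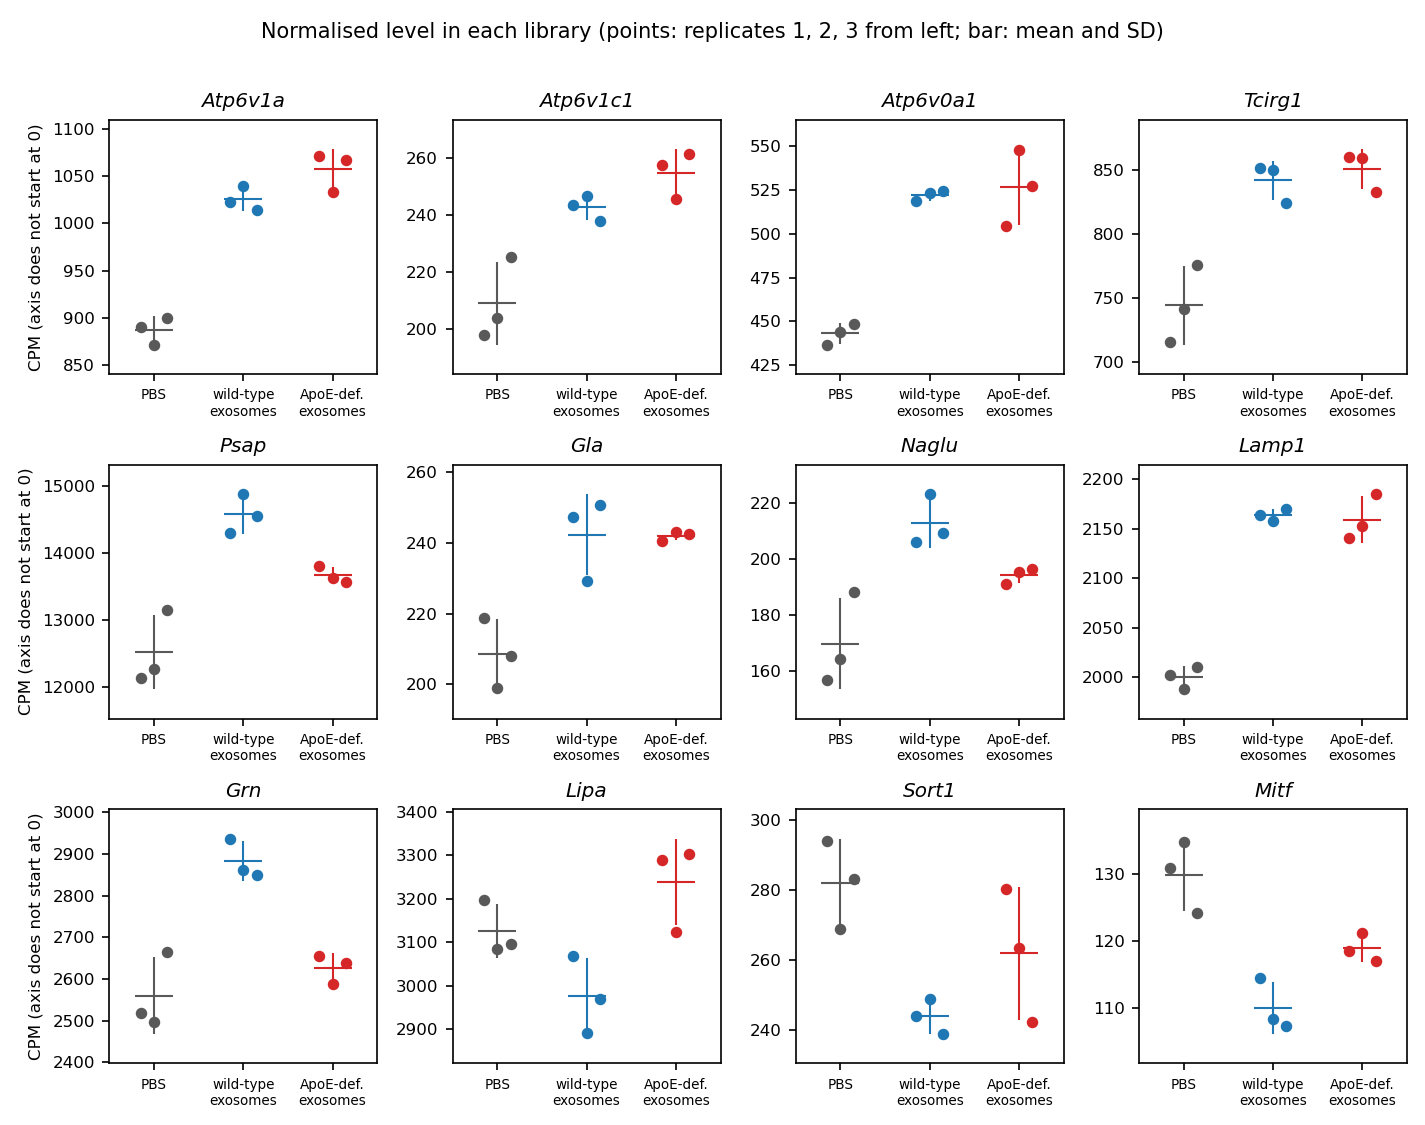
Normalised level in CPM of members the text turns on, in each library (points: replicates 1, 2 and 3 from left; bars: mean and SD, n = 3; the axes do not start at 0). For Atp6v1a all 6 exosome libraries, at 1015 to 1072 CPM, lie above the PBS libraries at 872 to 900 CPM, whereas for Grn the WT libraries, at 2849 to 2937 CPM, lie above both other groups.

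Of the 7 membrane protein genes, Lamp1 was called with each exosome and the other 6 with neither. Lamp1 (chr8:13159161-13175338) was at 2002, 1988 and 2010 CPM with PBS, 2164, 2158 and 2170 CPM with WT exosomes and 2140, 2152 and 2185 CPM with EKO exosomes. The rise was small and the replicates were tight, with no overlap: log2 0.11 ± 0.025 with EKO (adjusted p = 0.00449) and 0.11 ± 0.025 with WT exosomes (adjusted p = 0.0038). Of its exon length 9.31% overlaps Grtp1, which had 182 to 245 counts per library. Its relative Lamp2 was at 724 ± 25.2, 733 ± 30 and 730 ± 17.8 CPM, and Laptm5, a lysosomal protein of blood cells, at 2452 ± 44.1, 2450 ± 68.7 and 2376 ± 43.8 CPM, in the PBS, WT and EKO groups. The calcium channel gene Mcoln1 was at log2 0.15 with EKO (adjusted p = 0.167) and 0.02 with WT exosomes (adjusted p = 0.944), and the cystine exporter Ctns at 0.16 and 0.02. Scarb2, the receptor that carries glucocerebrosidase, was at -0.06 and -0.02.

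In the sphingolipid group of 10 genes, Psap and Gla rose with both exosomes, Hexa rose with WT exosomes, and Gm2a fell with EKO exosomes. Psap (ENSMUSG00000004207, chr10:60277627-60302597) was at 12147, 12268 and 13154 CPM with PBS, 14304, 14883 and 14552 CPM with WT exosomes and 13808, 13631 and 13577 CPM with EKO exosomes. The groups did not overlap, and the EKO group lay between the others. Relative to PBS the change was 0.22 ± 0.025 with WT exosomes (adjusted p = 1.13e-07) and 0.13 ± 0.025 with EKO exosomes (adjusted p = 0.000705). The direct difference, EKO against WT, was -0.09 ± 0.025 and missed the threshold (adjusted p = 0.0726). It passed with DESeq2 (adjusted p = 0.0254) and limma-voom (0.000575), and in edgeR without PBS replicate 1 (0.0492), PBS replicate 3 (0.00837) or WT replicate 1 (0.0477).

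Gla encodes alpha-galactosidase A, which removes terminal galactose from globotriaosylceramide. It was at 219, 199 and 208 CPM with PBS, 247, 229 and 251 CPM with WT exosomes and 241, 243 and 242 CPM with EKO exosomes. Both exosome groups lay above PBS, by 0.22 ± 0.042 on the log2 scale in each (adjusted p = 0.00077 with EKO, 0.000785 with WT). Hexa was at 1296, 1322 and 1364 CPM with PBS, 1423, 1480 and 1522 CPM with WT exosomes and 1398, 1391 and 1423 CPM with EKO exosomes. Its rise with WT exosomes was 0.15 ± 0.029 (adjusted p = 0.000637). With EKO exosomes it did not pass in edgeR and passed with limma-voom (adjusted p = 0.0347), and the exosomes did not differ past the threshold (adjusted p = 0.438). Of the exon length of Hexa 12.8% overlaps Tmem202, which had 28 to 69 counts per library.

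Gm2a, the GM2 activator that hands ganglioside GM2 to beta-hexosaminidase, was at 360, 364 and 383 CPM with PBS, 355, 361 and 382 CPM with WT exosomes and 344, 335 and 340 CPM with EKO exosomes. The EKO libraries were below all others. Its fall with EKO exosomes, -0.12 ± 0.036, barely passed (adjusted p = 0.0492), and the difference from WT exosomes did not (adjusted p = 0.25). The call was lost without EKO replicate 1 (adjusted p = 0.0877), EKO replicate 2 (0.248), EKO replicate 3 (0.121), PBS replicate 2 (0.0893), PBS replicate 3 (0.238) or WT replicate 2 (0.0611). With EKO exosomes Hexa, whose product acts on the same lipid, was at 0.08 (adjusted p = 0.131). The acid ceramidase gene Asah1 (420 ± 3.03, 416 ± 11.9 and 421 ± 9.64 CPM in the PBS, WT and EKO groups) and the beta-galactosidase gene Glb1 (141 ± 6.68, 148 ± 8.34 and 139 ± 3.20 CPM) were not called. Neither were Arsa, Galc, Smpd1 and Neu1.

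Of the 6 glycosaminoglycan hydrolases, Naglu, which removes N-acetylglucosamine from heparan sulfate, rose with both exosomes. It was at 157, 164 and 188 CPM with PBS, 206, 223 and 210 CPM with WT exosomes and 191, 196 and 197 CPM with EKO exosomes. The 3 groups did not overlap. The rise with WT exosomes, 0.33 ± 0.050 (adjusted p = 2.53e-05), or 25.4%, was the largest of any member there, and the rise with EKO exosomes was 0.20 ± 0.050 (adjusted p = 0.0129). The difference between the exosomes, -0.13, did not pass (adjusted p = 0.362). The EKO call was lost without EKO replicate 2 (adjusted p = 0.0601), EKO replicate 3 (0.0687), PBS replicate 1 (0.157) or PBS replicate 2 (0.0868). Naglu (chr11:101070012-101077672) begins 6.29 kb after the end of the pump gene Atp6v0a1 (chr11:101009452-101063719) on the same strand, so 2 of the members that rose in both comparisons are neighbours.

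Gusb, for beta-glucuronidase, was at 855, 838 and 850 CPM with PBS, 925, 929 and 925 CPM with WT exosomes and 915, 879 and 924 CPM with EKO exosomes. All exosome libraries were above PBS. The change passed with WT exosomes (0.13 ± 0.029, adjusted p = 0.00479) and missed the threshold with EKO exosomes (0.10, adjusted p = 0.0509). The EKO change passed with DESeq2 (adjusted p = 0.00439), limma-voom (0.00891), upper-quartile factors (0.0446) and a minimum count of 50 (0.0396), and without EKO replicate 2 (0.0326), WT replicate 2 (0.044) or WT replicate 3 (0.0493). The sulfamidase gene Sgsh (231 ± 15.8, 241 ± 4.83 and 231 ± 4.06 CPM in the PBS, WT and EKO groups) and the iduronidase gene Idua (120 ± 7.5, 127 ± 8.80 and 115 ± 5.26 CPM) were not called, nor were the sulfatase genes Ids and Arsb. Arsb had the lowest fold change of any member with EKO exosomes, -0.17 (adjusted p = 0.218).

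Among the glycosidases of glycogen and glycoproteins, Gaa, for the acid alpha-glucosidase that degrades glycogen, was at 201, 205 and 199 CPM with PBS, 231, 237 and 217 CPM with WT exosomes and 221, 205 and 224 CPM with EKO exosomes. It was called higher with WT exosomes (0.18 ± 0.043, adjusted p = 0.00794), a call lost without WT replicate 2 (adjusted p = 0.0688). With EKO exosomes the change was 0.10 (adjusted p = 0.234). The alpha-mannosidase gene Man2b1 was at 1208 ± 12.4, 1203 ± 8.49 and 1181 ± 12.9 CPM in the PBS, WT and EKO groups, and Manba was not called.

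Tpp1, a tripeptidyl peptidase, was at 501, 490 and 503 CPM with PBS, 526, 540 and 564 CPM with WT exosomes and 535, 539 and 554 CPM with EKO exosomes. It rose with both, by 0.12 ± 0.033 with EKO (adjusted p = 0.0162) and 0.13 ± 0.033 with WT exosomes (adjusted p = 0.0157). The EKO call was lost without EKO replicate 3 (adjusted p = 0.138) or PBS replicate 2 (0.0882), and the WT call without PBS replicate 2 (0.0833) or WT replicate 3 (0.139). Lgmn was at 1043 ± 23.5, 1057 ± 20.1 and 994 ± 27.2 CPM and the thioesterase gene Ppt1 at 182 ± 8.19, 187 ± 11.3 and 186 ± 4.79 CPM, with no call.

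The comparison of EKO with WT exosomes asks how recipient cells differed with the genotype of the cells that made the vesicles. Of the 53 members 1 was called higher, Lipa (1.89%, against 0.282% of all tested genes), and 1 lower, Grn (1.89%, against 0.413%), where 0.695% of all tested genes passed in either direction. Grn (ENSMUSG00000034708, chr11:102430315-102437048), for progranulin, which is carried to the lysosome and cleaved there to granulins, was at 2519, 2496 and 2666 CPM with PBS, 2937, 2861 and 2849 CPM with WT exosomes and 2655, 2588 and 2639 CPM with EKO exosomes. The WT libraries were above all others, and the EKO and PBS libraries overlapped. Grn was higher with WT exosomes than with PBS (0.17 ± 0.027, adjusted p = 4.15e-05), was at 0.04 with EKO exosomes (adjusted p = 0.647), and was lower with EKO than with WT exosomes (-0.13 ± 0.027, adjusted p = 0.00478). Without EKO replicate 2 the last difference missed the threshold (adjusted p = 0.0845). The exons of Grn overlap those of Fam171a2 over 1.96% of their length, and Fam171a2 had 1 to 34 counts per library.

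Lipa (ENSMUSG00000024781, chr19:34492318-34527474) encodes lysosomal acid lipase, which frees cholesterol and fatty acids from lipoprotein lipids. It was at 3198, 3084 and 3097 CPM with PBS, 3067, 2892 and 2971 CPM with WT exosomes and 3289, 3124 and 3304 CPM with EKO exosomes. The EKO and WT libraries did not overlap, with PBS between their means. The difference of EKO from WT was 0.12 ± 0.027 (adjusted p = 0.0159), while neither exosome group was called against PBS by edgeR (EKO 0.05, adjusted p = 0.444, and WT -0.07, adjusted p = 0.168). The difference of WT from PBS passed with limma-voom (adjusted p = 0.0362). The call of EKO against WT was lost without EKO replicate 1 (adjusted p = 0.194), EKO replicate 3 (0.151), WT replicate 2 (0.188) or WT replicate 3 (0.0919).

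For the other 51 members the difference between the exosomes did not pass the threshold. Libraries of the 2 exosome groups did not overlap for 5 members higher with EKO (9.43%, against 7.04% of tested genes) and 8 lower (15.1%, against 7.01%), and the median log2 difference was -0.01. The 95% intervals of the differences not called, unadjusted for the number of genes, reached from -0.29 for Smpd1 to 0.27 for Ctns, so that larger differences lie outside them. For the 4 pump genes that rose with both, the EKO to WT difference was 0.04 (Atp6v1a, interval -0.01 to 0.10), 0.07 (Atp6v1c1, -0.02 to 0.16), 0.01 (Atp6v0a1, -0.05 to 0.08) and 0.02 (Tcirg1, -0.05 to 0.08).

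Of the 3 sorting receptors, Igf2r rose with both exosomes and Sort1 fell with WT exosomes. Igf2r, the cation-independent mannose 6-phosphate receptor, was at 530, 541 and 569 CPM with PBS, 629, 593 and 620 CPM with WT exosomes and 599, 582 and 588 CPM with EKO exosomes. It was higher with WT exosomes (0.17 ± 0.033, adjusted p = 0.00092) and just past the threshold with EKO exosomes (0.11 ± 0.033, adjusted p = 0.0498). The EKO call was lost without EKO replicate 1 (adjusted p = 0.238), EKO replicate 2 (0.084), EKO replicate 3 (0.141), PBS replicate 1 (0.257), PBS replicate 2 (0.158) or WT replicate 1 (0.0596). Sort1, for sortilin, which carries prosaposin and acid sphingomyelinase, was at 294, 269 and 283 CPM with PBS, 244, 249 and 239 CPM with WT exosomes and 280, 263 and 242 CPM with EKO exosomes. All WT libraries were below PBS and the EKO libraries overlapped both. Sort1 fell with WT exosomes (-0.21 ± 0.044, adjusted p = 0.00182) and was at -0.11 with EKO exosomes (adjusted p = 0.228), with no difference past the threshold between exosomes (adjusted p = 0.464). The cation-dependent receptor gene M6pr was at 262, 266 and 265 CPM with PBS, 252, 259 and 267 CPM with WT exosomes and 244, 251 and 255 CPM with EKO exosomes, and was not called.

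None of the 3 MiT/TFE genes rose. Mitf was at 131, 135 and 124 CPM with PBS, 114, 108 and 107 CPM with WT exosomes and 119, 121 and 117 CPM with EKO exosomes. Both exosome groups were below PBS without overlap. It fell with WT exosomes (-0.24 ± 0.050, adjusted p = 0.00189), the largest fall of any member there, and was at -0.13 with EKO exosomes (adjusted p = 0.193). Tfeb was at 71.6, 72.3 and 75.5 CPM with PBS, 74.2, 77.5 and 68.2 CPM with WT exosomes and 70.8, 72.5 and 69.4 CPM with EKO exosomes, all overlapping. Tfe3 was at 235, 236 and 247 CPM, 223, 227 and 218 CPM, and 237, 216 and 223 CPM in the same order, with log2 changes of -0.10 with WT (adjusted p = 0.179) and -0.09 with EKO exosomes (adjusted p = 0.336). These are transcript levels. The factors are known to be controlled mainly by phosphorylation and movement into the nucleus, which was not measured.

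Summed over the 53 genes, the lysosomal transcripts made up 3.75% to 3.90% of normalised counts with PBS, 4.11% to 4.13% with WT exosomes and 3.98% to 4.04% with EKO exosomes. Psap alone was 32.3% to 33.7%, 34.8% to 36% and 33.8% to 34.3% of that sum. The 52 genes other than Psap summed to 25215 to 25857 CPM with PBS, 26457 to 26830 with WT and 26138 to 26613 with EKO exosomes, so the groups did not overlap with PBS there either. The 16 pump genes summed to 4554 to 4738, 5021 to 5076 and 5135 to 5169 CPM in the same order. Without Atp6v1a, Atp6v1c1, Atp6v0a1 and Tcirg1 the pump sum was 2294 to 2388, 2406 to 2440 and 2441 to 2483 CPM, a smaller step. The sum of the 3 MiT/TFE genes ran the other way, at 437 to 446, 393 to 412 and 409 to 426 CPM, though Tfeb itself overlapped between all groups. These sums are descriptions and were not tested.

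**Figure D4:**
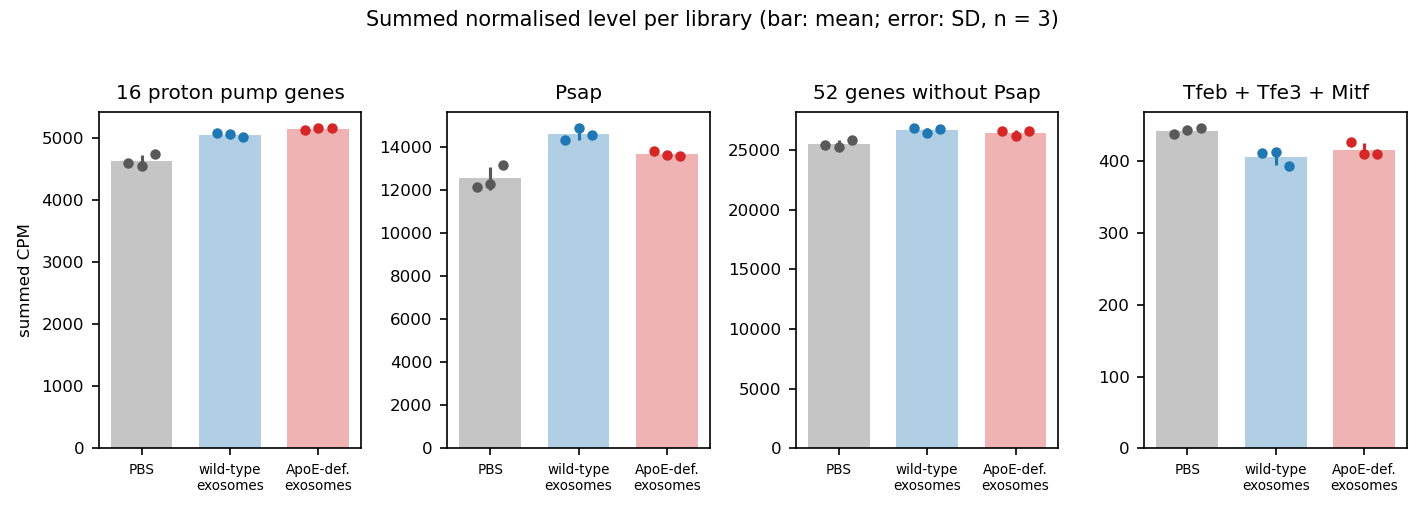
Summed CPM per library of the 16 proton pump genes, of Psap, of the 52 genes other than Psap and of the 3 MiT/TFE genes (points: libraries; bars: mean; error: SD, n = 3; axes start at 0). The pump sum is 4554 to 4738 CPM with PBS and at least 5021 CPM in every exosome library, a small step on an axis from 0.

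A wider list of 84 other lysosomal genes, cathepsins left out, had 76 that could be tested. Of the 76, 12 were called higher with EKO exosomes (15.8%, against 1.82% of all tested genes) and 1 lower (1.32%, near the 2.41% of all tested genes). With WT exosomes 12 were called higher (15.8%, against 1.93%) and 0 lower (against 2.18%), and in EKO against WT 1 was called lower (1.32%, against 0.413%). The median log2 changes were 0.03, 0.07 and -0.02. These counts changed when single libraries were left out. The 13 calls with EKO exosomes became 6 without EKO replicate 1 and 8 without PBS replicate 1 or PBS replicate 2. Without the same libraries, in that order, the 585 calls over all tested genes became 422, 476 and 440. The 12 calls with WT exosomes became 7 without PBS replicate 1 or PBS replicate 2, and 8 without WT replicate 3. Over all tested genes the 568 calls there became 415, 408 and 416. At an unadjusted edgeR p under 0.05, 25 of the 76 were higher and 5 lower with WT exosomes, against 6.78% and 7.23% of all tested genes. The corresponding numbers with EKO exosomes were 23 and 4, against 6.51% and 6.56%. The 0 called lower with WT exosomes was 1 with DESeq2 and 0 with limma-voom.

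Within that list the pump's alternative subunit d2, Atp6v0d2, was at 32.6 ± 2.09 CPM (SD, n = 3) with PBS, 41.9 ± 1.98 with WT and 42.4 ± 1.89 with EKO exosomes. It rose by 0.38 ± 0.084 with EKO (adjusted p = 0.00328) and 0.36 with WT exosomes (adjusted p = 0.0062), the latter lost without PBS replicate 3 (adjusted p = 0.0523). Of the 9 other pump subunits listed 4 could be tested, and of these Atp6v0a2, Atp6v1g2 and Atp6v0e2 were not called in any comparison. Atp6v1b1, Atp6v1c2, Atp6v1e2, Atp6v1g3 and Atp6v0a4 were too low to be tested. Fnip2, a partner of folliculin in nutrient signalling at the lysosome, was at 683 ± 16.5, 822 ± 25.4 and 813 ± 25.9 CPM (0.25, adjusted p = 8.7e-07 with EKO, and 0.27, adjusted p = 3.89e-07 with WT). Gnptab, the phosphotransferase that builds the mannose 6-phosphate tag read by Igf2r, was at 210 ± 1.82, 251 ± 11.3 and 239 ± 4.37 CPM (0.18, adjusted p = 0.00261, and 0.25, adjusted p = 4.19e-05). Dpp7, a dipeptidyl peptidase, rose by 0.33 with EKO (adjusted p = 0.000302) and 0.26 with WT exosomes (adjusted p = 0.00756). The latter call was lost without PBS replicate 1 (0.0567) or PBS replicate 2 (0.0679). Acp2, a lysosomal acid phosphatase, fell with EKO exosomes from 259 ± 5.83 to 230 ± 3.74 CPM (-0.17, adjusted p = 0.00336). The transporter gene Slc15a3 was at 538 ± 30.5, 607 ± 18.9 and 531 ± 13.7 CPM in the PBS, WT and EKO groups. Like Grn, it was higher with WT exosomes than with PBS (0.17, adjusted p = 0.00164) and lower with EKO than with WT exosomes (-0.19, adjusted p = 0.00202).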

How the data were processed

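Raw counts per Ensembl gene were deposited by the authors as one table with a column per library. Per the submitters' processing notes the tools included STAR 2.7.5c and the build was GRCm38. Annotation and strand setting of the counting are not stated in any source at hand, so reads of overlapping genes cannot be told apart. Among members not called, for example, Ppt1 overlaps Cap1, at 33082 to 40584 counts per library, over 3.51% of its exon length. Cln3 overlaps Apobr (7469 to 9559 counts) over 7.65%, and Glb1 overlaps Tmppe (838 to 1158 counts) over 5.49%. Counts were tested with edgeR 4.0.16 in R 4.3.3, with filterByExpr at a minimum count of 10, TMM scaling and a robust quasi-likelihood fit of group over all 9 libraries. P-values were adjusted by Benjamini-Hochberg over 13815 genes, with a threshold of 0.05, and the biological coefficient of variation was 12%. CPM are TMM-scaled. TPM use the union exon length in GENCODE M21. The fit was tested on simulated data. No pair of libraries agreed within sampling noise (chi-square per gene 6.87 to 18.9). Alternatives were RLE and upper-quartile factors, DESeq2 1.42.0, limma-voom (limma 3.58.1), no filter, a minimum count of 50, only the 6 libraries compared, a replicate block, and leaving out each library.

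Every member called in a comparison is named with its 9 values. Of the others, the 2 of each role with the highest TPM, the sorting receptors and the MiT/TFE genes are named, and of the wider list a few per direction with the lowest p. Others near the threshold or at the end of a range were named after their values were seen. The lists of other lysosomal genes and cell markers, like the members, were chosen with earlier results of these data known.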

Additional observations from a re-analysis of the deposited data

How the results depend on the processing

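Of 17 alternative settings, none reversed the sign of a call. All 17 kept 7 of the 11 member calls with EKO exosomes (Atp6v0a1, Atp6v1a, Atp6v1c1, Gla, Lamp1, Psap and Tcirg1), 14 of the 17 with WT exosomes (all but Atp6v0c, Gaa and Tpp1) and 0 of the 2 in EKO against WT. Members higher with EKO exosomes numbered 7 to 11 when single libraries were left out and 15 with DESeq2, and with WT exosomes 13 to 15 and 15. Members lower with EKO exosomes numbered 0 with upper-quartile factors and 0 with no filter, and 0 to 1 with single libraries left out, since Gm2a was the one call. In EKO against WT, members higher numbered 0 to 1 and members lower 0 to 2 with single libraries left out, and members lower numbered 2 with DESeq2, limma-voom, no filter, a minimum count of 50, the 6 libraries alone and the replicate block, each adding Psap. Calls among the other lysosomal genes were 6 to 13 with EKO and 7 to 12 with WT exosomes with single libraries left out, and in EKO against WT 3 with DESeq2, 2 with limma-voom and 2 with the replicate block. The cause of these shifts was not tested. Over all tested genes, deviations of same-numbered libraries from their group means correlated at -0.035 to 0.0402. Those of differently numbered libraries correlated at -0.0483 to 0.0385. With 3 libraries a group such values cannot decide whether the numbers mark a shared animal or day. The replicate block moved the calls over all genes from 585, 568 and 96 to 662, 669 and 144, members higher with EKO exosomes to 14, and members lower with WT exosomes from 2 to 3 (Lipa, adjusted p = 0.0421), as did limma-voom. Gusb with EKO exosomes passed with the block (0.0227). Igf2r with EKO exosomes also missed the threshold with RLE factors (adjusted p = 0.0544), no filter (0.0954) and the 6 libraries alone (0.0521), and Atp6v0c with WT exosomes with the last (0.0556). With 3 libraries a group an exact permutation test cannot go below 0.1, so calls rest on the model's shared estimate of spread, and with a median SE of 0.0426 (log2) changes of a few percent were not detectable.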
